A study of Homo sapiens with 3 samples.

Results

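SLC7A1, the gene of the cationic amino acid transporter CAT1, was described together with 8 other genes of plasma membrane amino acid transport in MATR3 PAR-CLIP data. The members were the rows of the deposited cluster tables whose gene name was SLC7A1, SLC7A2, SLC7A5, SLC7A6, SLC7A11, SLC3A2, SLC1A5, SLC38A1 or SLC38A2. They made up 412 of 133088 clusters in replicate 1, 331 of 131679 in replicate 2 and 380 of 124040 in replicate 3, and 9 of the 13557 gene names with a cluster. SLC7A1 was chosen by its read count and its clusters outside introns. These values, and the class shares that follow from them, are therefore given as a description without a test.

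PAR-CLIP incorporates a photoactivatable ribonucleoside into RNA, crosslinks it to protein and reads the crosslinked uridine as a T-to-C change. The study used an antibody against MATR3 (matrin 3) on untreated wild-type HEK293, a widely used line from human embryonic kidney, in 3 biological replicates. The replicates form 1 group of 1649124, 1506682 and 1532602 reads in clusters, and no control library or RNA abundance was used here. More RNA of a gene and more MATR3 on that RNA cannot be told apart in these counts. In the tables no cluster has under 4 reads, under 4 reads carrying T-to-C or under 2 conversion locations.

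MATR3 is a nuclear RNA-binding protein with zinc fingers and RNA recognition motifs, known for binding pyrimidine-rich RNA in introns and for repressing exons. The transporters fall into 3 kinds. SLC7A1 and SLC7A2 are single-chain carriers of arginine, lysine and ornithine. SLC7A5, SLC7A6 and SLC7A11 are light chains that pair with the heavy chain SLC3A2 (CD98): SLC7A5 (LAT1) carries large neutral amino acids, SLC7A6 exchanges cationic for neutral ones, and SLC7A11 (xCT) takes up cystine in exchange for glutamate. SLC1A5 (ASCT2), SLC38A1 and SLC38A2 carry glutamine and other small neutral amino acids. The 3′ UTR of the SLC7A1 mRNA is known as a target of miR-122 in liver cells, and the mouse Slc7a2 locus is known for a long nuclear-retained transcript found in paraspeckles.

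The sequences below come from stretches of SLC7A1 that a cluster covered in each of the 3 replicates, and are shown as the RNA strand in DNA letters (hg38, minus strand). Of the 9 SLC7A1 sites with a cluster in all replicates, these 4 had the longest stretches in common, of 30, 95, 26 and 48 nt. Stretches over 30 nt are cut to their central 30 nt. Capitals mark TCTT, the core of the AUCUU motif known for MATR3.
3′ UTR, chr13:29510411-29510440: ctgccaggctcctggggaccttatccgagt
3′ UTR, chr13:29513017-29513046: agacagaaggcccatgctgatgggggagga
intron 6, chr13:29523753-29523778: ctcccagattttctctgccaaaggaa
intron 1, chr13:29561316-29561345: tgtagcttcatTCTTgataccccctcagcg
As printed, 1 of these 4 sequences holds TCTT and 0 hold the whole ATCTT. The bases cut off were not counted.

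SLC7A1 (ENSG00000139514.13) lies on the minus strand of chromosome 13, from 29509414 to 29595688 (hg38), and its canonical transcript has 12 introns, 1.89 kb of coding sequence and a 3′ UTR of 5066 nt. Its clusters numbered 117, 75 and 93 (replicates 1 to 3) and contained 2351, 1701 and 2023 reads, of which 842, 745 and 734 were distinct. Scaled to 1000000 reads of clusters that have a gene name, a unit called normalised reads here, this was 1623, 1281 and 1489, or 1464 ± 173 (SD, n = 3). Replicate 2 was lowest and replicate 1 highest. Among 13542 nuclear gene names SLC7A1 ranked 7 by its mean share of reads, and 7, 10 and 10 in the single replicates.

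Levels of different genes were set against each other per kb of gene. SLC1A5 had 21.4 ± 1.09 normalised reads per kb, SLC7A5 had 19.7 ± 10.1, SLC7A1 had 17.0 ± 2.0 and SLC38A1 had 12.6 ± 3.58 (SD, n = 3). Neighbours in this order overlapped in range over the replicates. SLC3A2 followed with 9.12 ± 0.27 normalised reads per kb, SLC7A11 with 7.72 ± 0.34, SLC7A6 with 7.48 ± 4.15, SLC38A2 with 7.02 ± 4.03 and SLC7A2 with 1.47 ± 0.21 (SD, n = 3). The median of the 8151 protein-coding genes with a cluster in all 3 replicates was 1.55 normalised reads per kb, and SLC7A2 was the only member below it. In this lower part, SLC3A2 did not overlap SLC7A11, and SLC38A2 did not overlap SLC7A2. By this measure SLC7A1 ranked 128, lower than its rank in reads, which are not set against its length of 86.3 kb.

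**Figure D1:**
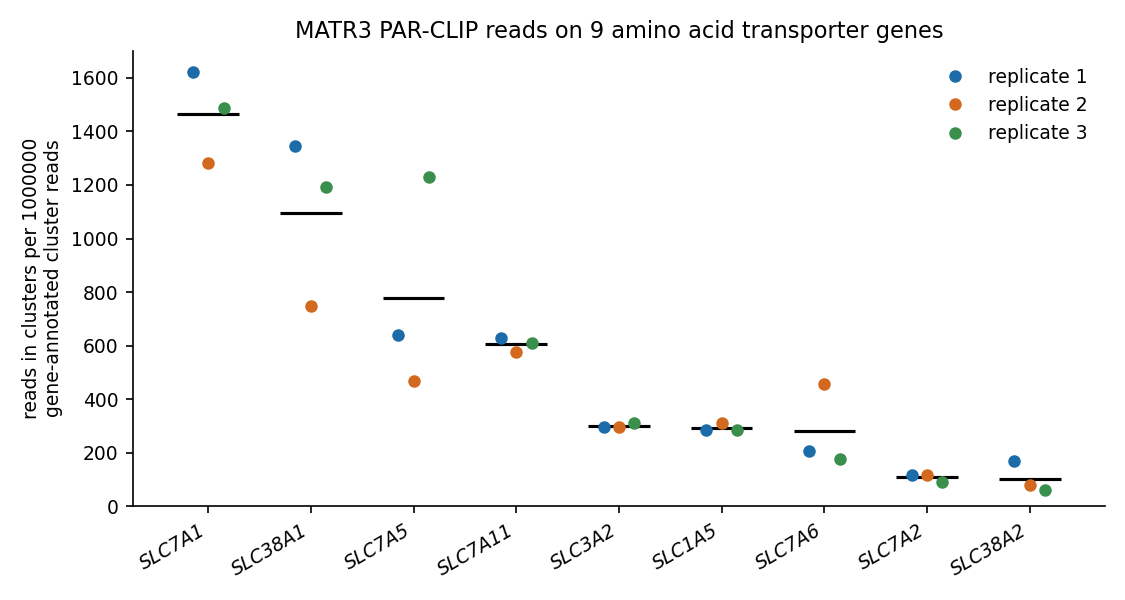
Normalised reads (vertical axis, scaled to 1000000 reads of clusters that have a gene name) of the 9 transporter genes; points are replicates and black lines are means. SLC7A1 lies between 1281 and 1623, SLC7A5 is spread from 467 to 1230, and SLC7A2 and SLC38A2 lie lowest.

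All 9 members had a cluster in each replicate, as did 40.7% of the 20005 annotated protein-coding genes. All 9 also had an intron cluster in each replicate, against 36.6% of genes. A 3′ UTR cluster in each replicate was present in 6 of 9 (SLC7A1, SLC7A5, SLC7A6, SLC7A11, SLC38A1 and SLC38A2), against 7.15% of genes. A coding cluster in each replicate was present in 4 of 9 (SLC7A1, SLC7A5, SLC7A6 and SLC1A5), against 1.75%. The genes were picked with such values in view, so nothing is read from these counts.

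Outside introns means here every deposited class but intron, including classes that span an exon and an intron. Clusters of SLC7A1 outside introns numbered 20, 16 and 16 in replicates 1, 2 and 3, or 18.5% ± 2.42 of its clusters (SD, n = 3). Of these, 14, 13 and 13 lay in the 3′ UTR, with 351, 466 and 355 reads, and 3, 2 and 3 lay in coding sequence, with 39, 21 and 60 reads. The 3′ UTR counts hardly varied, while the intron clusters ranged from 59 in replicate 2 to 97 in replicate 1. By mean number of 3′ UTR clusters, SLC7A1 ranked 9 among 4566 gene names with such a cluster. Its share of clusters outside introns was not the highest of the members. SLC1A5 had 41.6% ± 5.13, SLC7A6 37.9% ± 19.3 and SLC38A2 35.7% ± 27.3 (SD, n = 3). The mean shares of SLC3A2, SLC7A5, SLC38A1, SLC7A11 and SLC7A2 were below that of SLC7A1.

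Set against length, clusters of SLC7A1 were denser than those of all genes in the 3′ UTR and in introns alike. Its 3′ UTR held 2.76, 2.57 and 2.57 clusters per kb and its introns 1.23, 0.747 and 0.976. Over all protein-coding genes with a cluster, 3′ UTRs held 0.249 clusters per kb ± 0.011 and introns 0.117 ± 0.0042 (SD, n = 3). The ratio of 3′ UTR to intron density was 2.77 ± 0.60 in SLC7A1 and 2.13 ± 0.17 over all these genes (SD, n = 3), and their ranges over the replicates overlapped. Among the members SLC7A6 had a higher mean ratio, 4.37 ± 3.70 (SD, n = 3), and all others had a lower one. No test was made, since cluster counts by class were used to choose the gene.

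**Figure D2:**
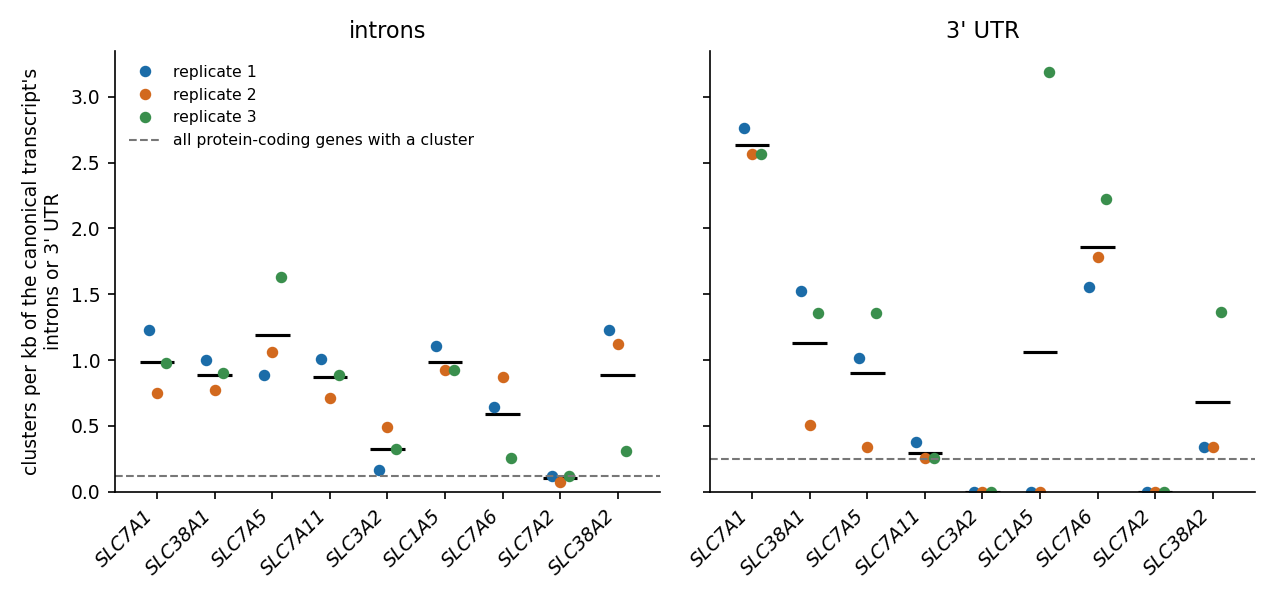
Clusters per kb of canonical introns (left) and canonical 3′ UTR (right) for each member; points are replicates, black lines are means and the dashed line is the value over all protein-coding genes with a cluster. SLC7A1 has 2.57 to 2.76 clusters per kb of 3′ UTR in the 3 replicates, and SLC7A2 and SLC3A2 have none there. The intron value of SLC3A2 leaves out 60 of its 66 intron clusters, which lie outside the canonical introns.

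Along the gene, the 2 longest introns of SLC7A1 held about their share by length of the intron clusters, while shorter introns varied. Introns 1 and 2, of 41.6 and 17.6 kb, made up 74.9% of the intron length and held 177 of the 233 intron clusters, or 76.0%. Intron 1 had 49, 29 and 38 clusters in replicates 1, 2 and 3 and intron 2 had 26, 15 and 20, which is 0.93 ± 0.24 and 1.16 ± 0.31 per kb (SD, n = 3). Intron 6, of 0.643 kb, had 2, 1 and 3 clusters, which is 3.11 ± 1.56 per kb and the highest mean of the 12 introns. Intron 8, of 2.77 kb, had 1 cluster in replicate 1 and none in the other two, and the short introns 10 and 11 had none. The leading cluster was at a different place in each replicate. It lay in the 3′ UTR in replicate 1 (chr13:29511183-29511318, 94 reads), in intron 1 in replicate 2 (chr13:29587652-29587968, 157 reads) and in intron 2 in replicate 3 (chr13:29550393-29550830, 179 reads).

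**Figure D3:**
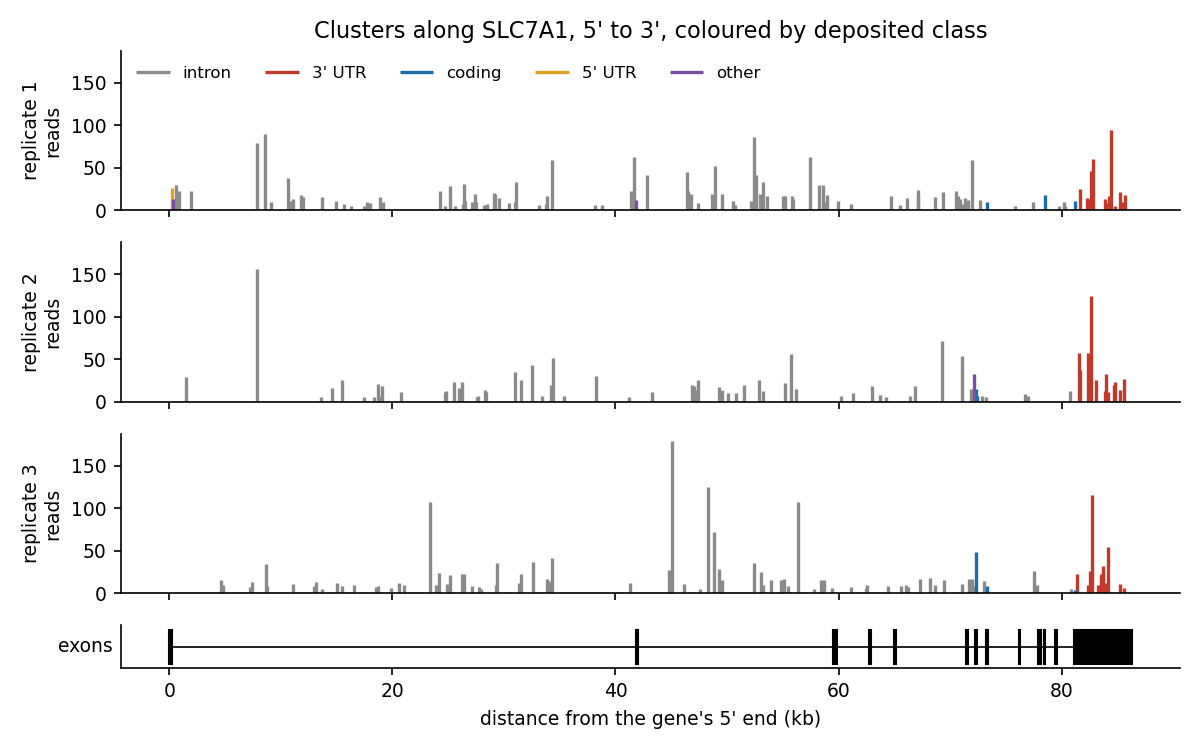
Clusters of SLC7A1 in replicates 1, 2 and 3 (top to bottom), with the distance of the cluster centre from the gene's 5′ end in kb on the horizontal axis and the reads of the cluster on the vertical axis, coloured by deposited class; black boxes are exons of the canonical transcript. The dense group of red 3′ UTR clusters at the right appears in each replicate, while the tallest intron cluster of each replicate stands at a different place. That of replicate 2, with 157 reads, overlaps a cluster of replicate 1 with 79 reads.

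In the 3′ UTR, all 40 clusters lay inside the canonical 3′ UTR, chr13:29509414-29514479. They covered 17.4%, 19.8% and 20.8% of its 5066 nt in replicates 1, 2 and 3. Together they left 57.7% uncovered, with 30.3% covered in 1 replicate, 8.13% in 2 and 3.81%, or 193 nt, in all 3. In introns the clusters covered 7.69%, 5.18% and 6.48% of the length in the single replicates, and 87 of 78932 nt, or 0.11%, in all 3.

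A site was a stretch of overlapping clusters on 1 strand, and SLC7A1 had 9 sites with a cluster in each replicate, 37 in 2 and 177 in 1. Of protein-coding genes, 10.9% had at least 1 site with a cluster in each replicate, as did 5 of the 9 members. These 2181 genes had a median of 1 such site, and 3 had more than SLC7A1. Of the 9 sites, 4 were in the 3′ UTR and 5 in introns 1, 2, 5 and 6.

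Among these 9, the site with most reads, chr13:29512861-29513207 in the 3′ UTR, held 127, 125 and 142 reads in replicates 1, 2 and 3. These were 36.2% and 26.8% of the 3′ UTR reads in replicates 1 and 2, and 142 of 355 in replicate 3. It was made of 4 clusters in replicate 1, 1 in replicate 2 and 2 in replicate 3. The other 3′ UTR sites had fewer reads, with 21, 14 and 11 at chr13:29510406-29510499, 17, 11 and 54 at chr13:29511405-29511609 and 21, 32 and 12 at chr13:29511660-29511781. In these last 2 sites the clusters formed a chain in which no base was covered in all 3 replicates.

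Of the 5 intron sites with a cluster in each replicate, the one with most reads, chr13:29561288-29561503 in intron 1, had 59, 70 and 42 reads. In intron 6, which is 643 nt long, the site at chr13:29523660-29523797 had 59, 15 and 17 reads and lay 402 nt from the upstream exon and 239 nt from the downstream one. The site in intron 5, chr13:29524482-29524713, lay 343 nt before the downstream exon, with 7, 54 and 11 reads. The sites in intron 2 had 17, 22 and 17 reads at chr13:29540442-29540590, 4313 nt before the downstream exon, and 19, 14 and 15 reads at chr13:29546088-29546226, 7603 nt after the upstream exon.

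**Figure D4:**
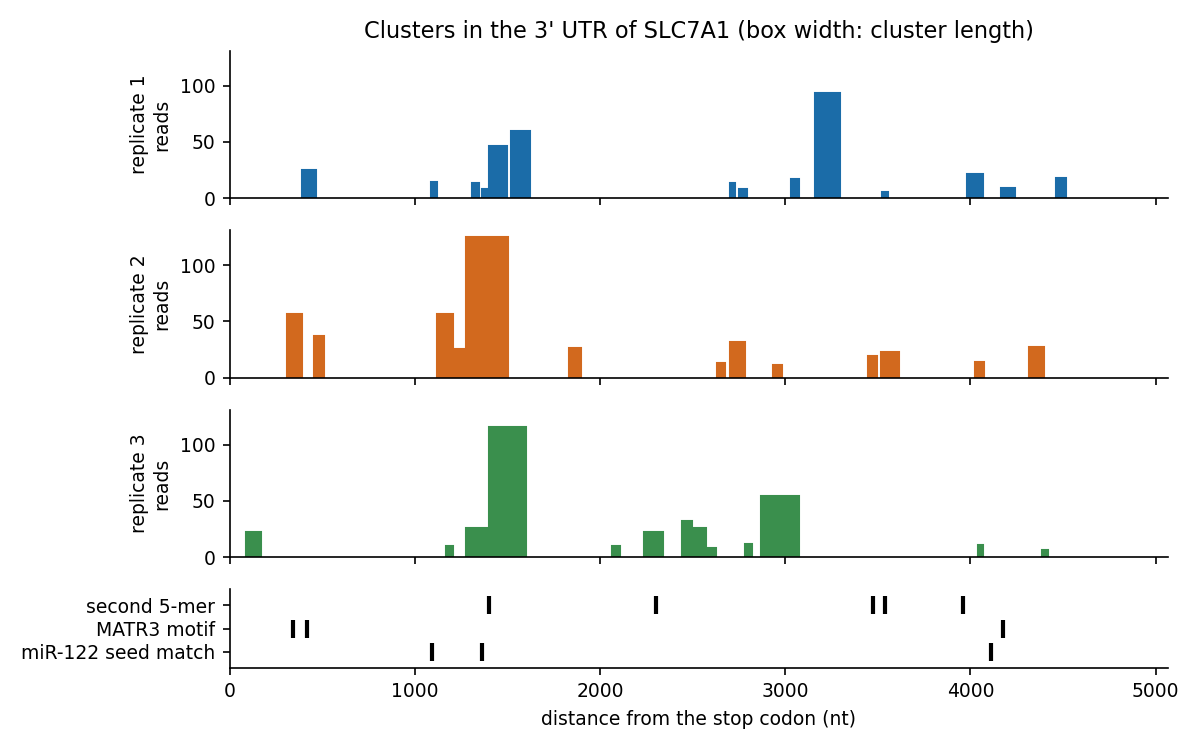
Clusters in the 3′ UTR of SLC7A1 by replicate, with the distance from the stop codon in nt on the horizontal axis, box width equal to cluster length and box height equal to reads; marks at the bottom show the first base of each copy of ATCTT (MATR3 motif), of a second 5-mer described further on, and of each miR-122-5p seed match. The tallest boxes of replicates 2 and 3, with 125 and 116 reads, overlap in the site at chr13:29512861-29513207.

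Overlap between replicates rises with the number and length of clusters per kb, and SLC7A1 was chosen by its reads and clusters, so overlap is given as a description with no test. In SLC7A1, 35.0%, 41.3% and 38.7% of clusters overlapped a cluster of another replicate by at least 1 nt, and in the other 8 transporters pooled 30.5%, 35.2% and 34.1% did. The difference was 5.09 percentage points ± 0.94 (SD, n = 3). Among intron clusters alone it was 1.90 ± 0.53. Among clusters with at least the replicate's median of reads it was 2.87 ± 3.99, with -1.73 in replicate 1, and with at least 3 conversion locations 0.74 ± 1.25. When at least 50% of both clusters had to overlap, it was -0.79 ± 2.40. The direction of this comparison is therefore not settled.

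Within SLC7A1, the 1 nt overlap was more frequent in the 3′ UTR than in introns. In the 3′ UTR 71.4%, 61.5% and 53.8% of clusters overlapped one of another replicate, against 30.9%, 35.6% and 35.1% in introns. The difference was 28.4 percentage points ± 11.1 (SD, n = 3). Its coding clusters, only 8 in all, had 33.3%, 50% and 66.7%. All 3′ UTR clusters in the tables had 23.9% ± 0.44, and 3′ UTR clusters of the same length had 31.4% ± 1.79 (SD, n = 3). The excess over clusters of the same length was 30.9 percentage points ± 9.91 (SD, n = 3). With an overlap of 50% of both clusters, the SLC7A1 3′ UTR had 0%, 15.4% and 15.4%, its introns 15.5%, 11.9% and 20.8%, and all 3′ UTR clusters 12.3%, 11.8% and 11.8%. The differences of -5.78 ± 9.50 from its introns and -1.70 ± 9.21 from all 3′ UTR clusters were within the spread. So clusters of different replicates touched more often in the 3′ UTR of SLC7A1 than in its introns, while close overlap was not more frequent there beyond the spread. The SLC7A1 3′ UTR also held 2.63 clusters per kb against 0.249 over all genes, and the part of this density in the overlap was not tested.

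The T-to-C change was lower per read in the 3′ UTR than in the introns of SLC7A1. In the 3′ UTR 70.4%, 61.8% and 66.5% of reads had one, and in introns 81.3%, 80.6% and 81.9%, so that the groups did not overlap. The difference of -15.1 percentage points ± 3.97 exceeded its spread and had this sign in each replicate (two-sided exact sign-flip test, p = 0.25, below which this test cannot go with 3 replicates). The same order was seen over all genes, with 78.3% ± 0.74 in 3′ UTRs and 87.5% ± 0.62 in introns (SD, n = 3). The limits of the tables force a high share on clusters with few reads, and SLC7A1 clusters had more reads, with a median of 21.2 ± 5.30 in the 3′ UTR and 13.7 ± 1.53 in introns against 10.3 ± 1.15 and 8.67 ± 0.58 over all genes. Against all 3′ UTR clusters of the same of 14 read count classes, the SLC7A1 3′ UTR was different by -6.18 percentage points ± 2.44. Its introns differed from intron clusters matched likewise by -1.15 ± 0.46, both below in each replicate (p = 0.25 for both, exact test). The highest class has no upper limit, so the clusters with most reads were matched only coarsely. Matched likewise, the other 8 transporters differed by -8.01 ± 0.46 in 3′ UTRs and -1.71 ± 1.03 in introns (SD, n = 3). These 8 were pooled by reads and had 67.2% ± 2.10 in 3′ UTRs. SLC7A1 differed from this pool by -0.98 ± 2.52, within the spread (exact sign-flip p = 1). The pool joined unlike members, here not matched by read count. SLC7A5 had 43.8% ± 9.52 over only 8 clusters. SLC7A6 had 78.1% ± 12.3, SLC38A1 78.8% ± 8.47, SLC7A11 92.0% ± 6.36 and SLC38A2 95.1% ± 4.29. These 4 means lay above the 66.2% ± 4.29 of SLC7A1 (SD, n = 3).

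Per T position, conversion did not separate the classes of SLC7A1. It ranged from 10.5% in replicate 1 to 11.98% in replicate 2 in the 3′ UTR, with 11.1% in replicate 3, and was 11.4%, 11.7% and 11.3% in introns, a difference of -0.28 percentage points ± 0.59 (SD, n = 3; exact sign-flip p = 0.75). Without replicate 1 the difference was 0.033, with the opposite sign.

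**Figure D5:**
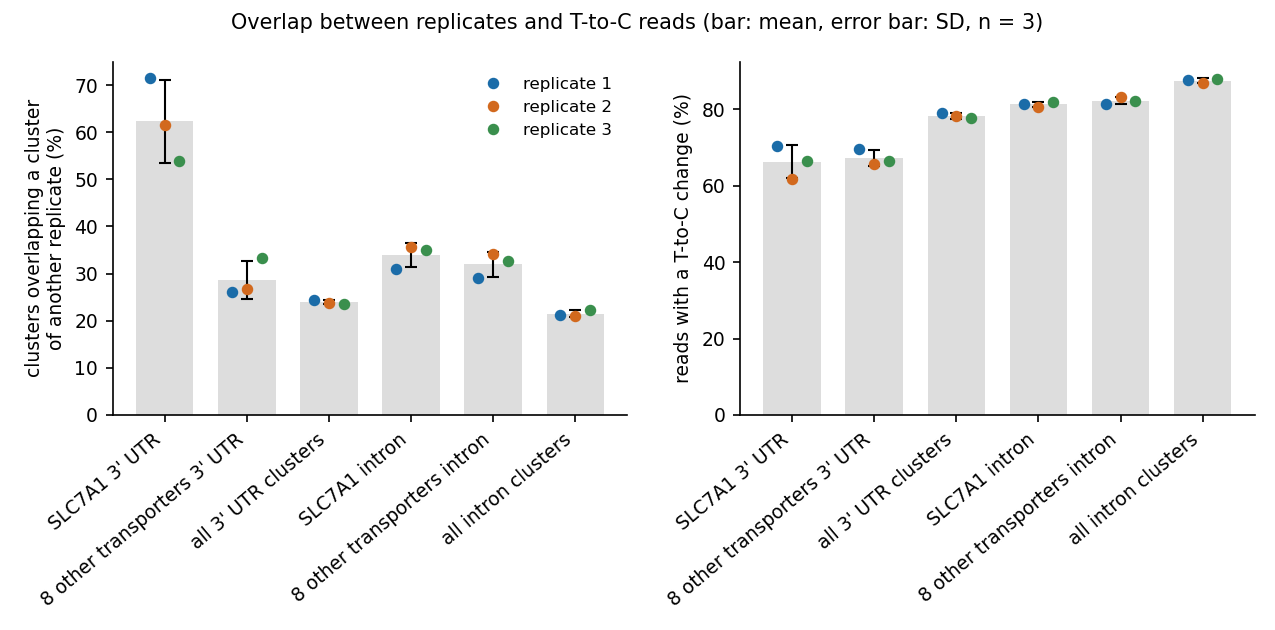
Left, share of clusters (in %) that overlap a cluster of another replicate by at least 1 nt; right, share of reads (in %) with a T-to-C change, in 3′ UTR and intron clusters of SLC7A1, of the other 8 transporters and of all genes. Bars are means, error bars are SD over 3 replicates and points are replicates. Of the groups shown, the SLC7A1 3′ UTR has the highest overlap, 53.8% to 71.4%. With the other transporters' 3′ UTRs, pooled by reads, it has the lowest T-to-C share.

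The motif known for MATR3 had a lower share in SLC7A1 clusters than in all clusters. ATCTT was present in 7 of 117, 6 of 75 and 5 of 93 of them, which is 6.45% ± 1.37, against 9.63%, 8.89% and 9.11% of all clusters. The difference was -2.76 percentage points ± 1.62, below 0 in each replicate (p = 0.25, exact test). SLC7A1 clusters were longer, with a mean of 67.0 nt ± 4.43 against 47.8 ± 2.73. Against all clusters of the same class and length the difference was -5.42 ± 1.73. Matched likewise, its introns differed by -5.51 ± 2.14, below 0 in each replicate. Its 3′ UTR differed by -3.99 ± 7.33, within the spread, with 2.63 in replicate 1. TCTT was present in 31.7% ± 2.41 of SLC7A1 clusters, against 47.1% ± 1.32 of all clusters of the same class and length. The T content moved with this. It was 26.6% ± 0.64 in SLC7A1 clusters and 31.1% ± 0.90 in all clusters (SD, n = 3), and its part in the result was not tested. The other 8 transporters had ATCTT in 8.13% ± 0.46 of clusters, against 10.8% ± 0.36 of all clusters of the same class and length.

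The 3′ UTR of SLC7A1 holds ATCTT 3 times, read on the RNA strand only, and each copy lay in a cluster of 1 replicate. They are shown with ATCTT in capitals, with the replicate and reads of the cluster.
ATCTT copy at chr13:29514122-29514150, replicate 2, 57 reads: ccttctctccttATCTTgggaaccaggcc
ATCTT copy at chr13:29514048-29514076, replicate 1, 25 reads: actttcgcagccATCTTcccgctcagccc
ATCTT copy at chr13:29510286-29510314, replicate 1, 9 reads: tcagccgactccATCTTcacccctcgatt
None of the 3 copies was inside a cluster of replicate 3.

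ACGTG was looked for after earlier results of these data had been seen, so its count is not independent evidence. It was present in 7.14%, 23.1% and 15.4% of the SLC7A1 3′ UTR clusters, against 1.91% ± 0.16 of 3′ UTR clusters of the same length, with 6 of 40 clusters in all. The SLC7A1 introns had 2.64% ± 2.24, and intron clusters of the same length 1.57% ± 0.18 (SD, n = 3). The 3′ UTR clusters of the other 8 transporters pooled had 4.78% ± 1.71. The 5-mer was not particular to SLC7A1. SLC7A5 had it in 7.48% ± 2.06 of all its clusters, against 5.39% ± 3.28 in SLC7A1. In SLC7A5 it was in 6.88% ± 1.72 of intron clusters and, over only 8 clusters, in 41.7% ± 52.0 of 3′ UTR clusters (SD, n = 3). The 3′ UTR of SLC7A1 holds ACGTG 5 times on the RNA strand, and 4 copies lay in a cluster. The 5 copies are shown in capitals.
ACGTG copy at chr13:29513065-29513093, replicates 2 and 3, 125 and 116 reads: gaggaaacctgaACGTGggtggagcgttc
ACGTG copy at chr13:29512163-29512191, replicate 3, 22 reads: ttaggaaaggacACGTGggggtgccttgc
ACGTG copy at chr13:29510991-29511019, replicate 2, 19 reads: gtttgcagtcccACGTGgcatggcctcca
ACGTG copy at chr13:29510923-29510951, replicates 1 and 2, 5 and 23 reads: ctggtggggggcACGTGgacatgccccat
ACGTG copy at chr13:29510507-29510535, no cluster: tgtataattgttACGTGtaatttaaaata
The first of these lies in the 3′ UTR site at chr13:29512861-29513207, and the last was not in a cluster.

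The 3′ UTR was also searched for the reverse complement of the miR-122-5p seed (RefSeq, GRCh38.p14), ACACTCC on the RNA strand, because this miRNA is known to act on it. The miRNA is shown with its seed in capitals, and the windows with the match in capitals.
miR-122-5p: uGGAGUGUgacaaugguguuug
chr13:29513372-29513400, 14 reads in replicate 1: atgaaattgtgACACTCCaccagattaag
chr13:29513099-29513127, 8, 125 and 26 reads in replicates 1, 2 and 3: ccatttcacacACACTCCttgtagatggg
chr13:29510353-29510381, no cluster: tgcaagaagctACACTCCatgtgtcatca
The 3 matches lay 1091, 1364 and 4110 nt after the stop codon. The middle one was inside a cluster in each replicate, within the 3′ UTR site at chr13:29512861-29513207. Of 1302 canonical 3′ UTRs with 80% to 120% of this length, 20.9% held at least 1 such match and 0.384% at least 3. A match is a run of letters, and no activity of this miRNA was measured here.

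SLC7A2, the other cationic carrier, had the fewest reads and clusters per kb of the 9 members. It lies on chromosome 8, 17497088 to 17570573, plus strand, and had 171, 153 and 123 reads (replicates 1 to 3) in 8, 5 and 8 clusters, all of them in introns. Its introns had 0.106 clusters per kb ± 0.026, near the 0.117 of all genes. Of its reads, 94.7% in replicate 1, 85.6% in replicate 2 and all 123 in replicate 3 lay within 3 kb of the gene's start, where the leading clusters of the replicates were 17499058 to 17499189 with 70 reads, 17499023 to 17499263 with 88 reads and 17498769 to 17498904 with 56 reads. The first and second overlapped, and the third lay upstream of them in the same intron 1. Its 3′ UTR of 5.42 kb, longer than that of SLC7A1, had no cluster in the 3 tables.

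Among the light chains, SLC7A5 (chromosome 16, 87830023 to 87869507, minus strand) had 37, 40 and 63 clusters and 928, 620 and 1671 reads. Replicate 3 was highest, with 1230 normalised reads against 641 and 467 in replicates 1 and 2. Its 3′ UTR clusters numbered 3, 1 and 4, with 156, 31 and 264 reads. Their median length was 85, 46 and 90.5 nt in replicates 1, 2 and 3. T-to-C was found in 43.8% ± 9.52 of the 3′ UTR reads and in 80.4% ± 1.78 of the intron reads of SLC7A5 (SD, n = 3). The 3′ UTR clusters also had more reads, with a median of 47.5 ± 14.5 against 14.3 ± 4.04 in introns. SLC7A5 alone was not matched by read count. Its leading clusters were all in intron 2 but did not overlap, at 87842016 to 87842196 with 71 reads, 87850043 to 87850183 with 89 reads and 87844283 to 87844542 with 131 reads.

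SLC7A6 (chromosome 16, 68264516 to 68301823, plus strand) had 28, 36 and 20 clusters and was the member with the second-largest number of 3′ UTR clusters, at 7, 8 and 10. Its normalised reads were 204, 457 and 176. Replicate 2 was highest, with the most clusters and the most intron reads, 314 against 211 and 95, and with a 3′ UTR cluster of 493 nt, 68298358 to 68298850, that had 211 of its 607 reads. The leading clusters of replicates 1 and 3 had 30 reads in intron 7, at 68292390 to 68292470, and 36 reads in coding sequence, at 68290442 to 68290506.

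SLC7A11 (chromosome 4, 138164097 to 138242349, minus strand) varied little between replicates, with 628, 575 and 610 normalised reads. Most of its clusters lay in introns, which held 69, 49 and 61 of its 74, 52 and 63 clusters. Although its 3′ UTR is the longest of the 9 at 7.86 kb, only 3, 2 and 2 clusters lay there. The resulting 0.30 clusters per kb ± 0.073 in the 3′ UTR was below the 0.87 ± 0.15 in its introns, the reverse of SLC7A1. Its leading clusters lay in introns 11, 3 and 6, at 138176569 to 138176635 with 52 reads, 138230198 to 138230388 with 92 reads and 138194131 to 138194265 with 60 reads. It had 4 intron sites with a cluster in each replicate, and the 2 with a common stretch of at least 30 nt, both in intron 5, are shown with TCTT in capitals.
SLC7A11 intron 5, chr4:138216951-138216980: tccaaagagaggggcatttattcacttgcc
SLC7A11 intron 5, chr4:138217554-138217583: taaaatatTCTTttaccctcctcacttttc
The second is the richer in T, with T at 14 of its 30 positions against 8 in the first.

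The heavy chain SLC3A2 (chromosome 11, 62856004 to 62888880, plus strand) had 295, 294 and 310 normalised reads in 23, 30 and 25 clusters. Of its 66 intron clusters, 60 lay upstream of the canonical transcript's introns, in introns of longer annotated transcripts. The leading clusters of replicates 1 and 3, at 62865804 to 62866099 with 132 reads and 62875872 to 62875962 with 53 reads, were among these 60, and that of replicate 2, at 62882550 to 62882597 with 40 reads, was in canonical intron 2. Its 3′ UTR is 0.167 kb long and had no cluster. One of its 2 sites with a cluster in each replicate, chr11:62880926-62881085, spanned the 5′ UTR and the start codon of the canonical transcript, with 13, 14 and 43 reads.
SLC3A2 5′ UTR, chr11:62880931-62880960: gccggggagagcgttctgggtccgagggtc
As printed, this stretch holds no TCTT.

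The glutamine carriers differed in where their clusters lay. SLC1A5 (chromosome 19, 46774883 to 46788594, minus strand), a gene of 13.7 kb, had 283, 310 and 286 normalised reads. Of these 66.8% ± 1.44 were in clusters of a class other than intron, the largest share of the 9 members (SD, n = 3). For SLC1A5 this includes clusters classed as spanning coding sequence and intron, among them the leading clusters of replicates 2 and 3. Its leading clusters reached into coding exons in each replicate, at 46777226 to 46777386 with 69 reads, 46777172 to 46777378 with 92 reads and 46782368 to 46782496 with 99 reads. The first and second overlapped. By 1 nt, 49.5% ± 7.09 of its clusters overlapped one of another replicate, and with 50% of both clusters 32.6% ± 2.08 did, the latter against 10.8% ± 0.32 of all clusters (SD, n = 3). In SLC7A1 the latter share was 15.5% ± 4.25; the difference between these genes was not tested.

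SLC38A1 (chromosome 12, 46183063 to 46270017, minus strand), which at 87.0 kb has nearly the length of SLC7A1, had 89, 64 and 80 clusters and 1347, 748 and 1194 normalised reads. Its range overlapped that of SLC7A1. Its introns held 0.89 clusters per kb ± 0.12 and its 3′ UTR 1.13 ± 0.54, a ratio of 1.23 ± 0.49 against 2.77 in SLC7A1. The leading clusters lay in intron 1, at 46256687 to 46256778 with 174 reads, and in intron 5, at 46216630 to 46216722 with 49 reads and 46221741 to 46221956 with 150 reads. It had 3 sites with a cluster in each replicate, all in introns, and a stretch common to the replicates is shown from 1 of them.
SLC38A1 intron 5, chr12:46224729-46224758: tttaagtttctcactaaacttaggactctc
It holds no TCTT. The neighbouring SLC38A2 (chromosome 12, 46358188 to 46372773, minus strand) had 16, 13 and 9 clusters and 169, 79.1 and 58.9 normalised reads, with replicate 1 highest. Its intron clusters numbered 12, 11 and 3, so that replicate 3 had more clusters outside introns than inside. Its leading clusters, all in introns 4 or 7, had 71 reads at 46368056 to 46368103, 19 at 46365841 to 46365923 and 12 at 46369214 to 46369255.

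A wider list of 38 amino acid transporter genes of the SLC1, SLC3, SLC6, SLC7, SLC16, SLC36, SLC38 and SLC43 families was examined beside the members. It leaves out the 9 members, which all had a cluster in each replicate. A cluster in every replicate was found for 13 of the 38, or 34.2%, against 40.7% of protein-coding genes. This share is therefore not that of amino acid transporters as a whole. A further 3 had one in 2 replicates, 3 in 1 and 19 in none of the 3 tables. The highest were SLC38A10 with 385 normalised reads ± 105, SLC43A1 with 244 ± 29.5, SLC16A10 with 230 ± 74.0 and SLC36A1 with 183 ± 44.2 (SD, n = 3). SLC36A1, a lysosomal exporter of small amino acids, had 22 of its 57 clusters in the 3′ UTR. SLC7A3, the third cationic carrier, had 3, 4 and 3 clusters and 24.5 normalised reads ± 9.86.

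Among 1180 gene names with at least 20 clusters in each replicate, the 5 nearest to SLC7A1 in their shares of intron, 3′ UTR, coding and 5′ UTR clusters were TMEM164, RNF121, FOXK1, CELF1 and CRAMP1. Distances in these 4 shares ran from 1.25 to 2.76 percentage points, from means over 3 replicates. SLC7A1 had 81.5% intron and 14.4% 3′ UTR clusters, and TMEM164 had 81.3% and 14.0%. The median gene of this set had 95.9% intron and 1.08% 3′ UTR clusters, and 88.2% of the genes had a smaller share outside introns than SLC7A1.

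Near SLC7A1 there was little other signal. No cluster on the opposite strand overlapped the gene in the 3 tables, and within 10 kb downstream on its own strand replicates 1 and 2 had no unannotated cluster and replicate 3 had 2, with 11 reads in all. Downstream of SLC3A2 there were 5, 8 and 6 unannotated clusters with 44, 271 and 100 reads. The opposite strand of SLC7A6 had 6, 9 and 6 clusters, named SLC7A6OS where they had a gene name.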

How the data were processed

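Per the file headers, the authors deposited 1 table of read clusters for each of the 3 replicates, with whole-number counts of reads, distinct reads, conversion locations and conversion events, and the fraction of reads with T-to-C from 0 to 1. Build hg38 is named in the submitters' processing notes. The aligner, cluster caller and annotation release are not given in the sources used here. All 1123 member clusters equalled hg38 at their coordinates. Counts cover clusters only, so the depth of the libraries is unknown; reads carry no molecular identifiers.

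Genes were taken by deposited name and classes as deposited. Lengths, introns and UTRs are those of the canonical transcript in GENCODE release 44. Densities count clusters whose class and midpoint fall in that part. Conversion is events over converted and unconverted T positions. Matching used 20 classes of length or 14 of read count, the highest of each without an upper limit. Differences were tested over 3 replicates with exact two-sided sign-flip tests, 22 between groups of clusters and 20 against matched clusters, so no adjustment can bring a p-value under 0.05. Tests of overlap between replicates, which depends on cluster density, are not printed. Members and lists were chosen with earlier results of these data known. The functions for overlap and tests were tested on simulated data. The text names the 9 members, every SLC7A1 site with a cluster in all replicates, leading clusters of other members, the 4 other transporters with most reads and the 5 genes with the nearest class shares; SLC7A3, ACGTG, miR-122 and the stretches shown were chosen after values were seen. Python 3.11.15 with pandas 2.3.3, NumPy 2.4.6 and matplotlib 3.10.9 was used. A further stretch of SLC38A1 is not reported here.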

Additional observations from a re-analysis of the deposited data

How the results depend on the processing

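Over 7 results and 57 recomputed values, 49 kept their direction or moved by less than the spread. Normalised reads of SLC7A1, 1464, were 1740 where clusters needed 3 distinct reads, 1733 where they needed the replicate's median of reads, 1903 where they needed 3 conversion locations and 1292 over all cluster reads; its share of clusters outside introns, 18.5%, was 21.1% with at least 3 distinct reads and 23.3% weighted by reads. The overlap of SLC7A1 less that of the other 8 transporters, 5.09 percentage points, changed sign with an overlap of 50% of both clusters, at -0.79, and was 0.74 where clusters needed 3 conversion locations, 1.90 among intron clusters and 2.87 where they needed the median of reads. Leaving out 1 replicate at a time gave 3.49 to 6.93 for this difference, 1385 to 1556 normalised reads, 17.1% to 19.3% outside introns, -17.1 to -13.2 for T-to-C reads, -3.69 to -2.27 for ATCTT and -0.55 to 0.033 for conversion per T, which changed sign without replicate 1. The cause was not tested, except that fewer clusters enter the stricter sets. Comparisons with all clusters of the same length or read count, and the 50% overlap by class, were chosen after seeing the data. The replicates are not split into conditions, so no pairing of conditions was possible. The sign-flip tests compare sets of clusters within each replicate and are paired in this sense only.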
